A study of Mus musculus with 28 samples.

Results

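Mural cells are the pericytes and smooth muscle cells that wrap brain vessels. Pericytes lie on capillaries inside the basement membrane and help to keep the blood-brain barrier closed, while smooth muscle cells ring arterioles and set their width. Fibroblasts of larger vessels also carry the receptor PDGFRb and lay down collagen. The comparison described here sets mural cells sorted from breast cancer brain metastases (BrM) against mural cells sorted from non-tumor brain, and asks how pericyte, smooth muscle, fibroblast, matrix and immune genes differ. It rests on 9 of the 28 RNA-seq libraries of the series, chosen by their labels: 4 from the PDGFRb sort of breast BrM and 5 from the PDGFRb sort of non-tumor brain. Each library came from its own mouse, and no mouse gave PDGFRb libraries to both groups.

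Per the labels, the mice were PDGFRb-CreERT2; Rosa-tdTomato, in which tamoxifen lets Cre recombinase switch on the red protein tdTomato in cells that use the Pdgfrb promoter. Tamoxifen was given at 2 mg a day for 5 days. For the breast group PyMT-BrM3 cells, a brain-homing mouse breast cancer line, were injected into the heart. The labels give 1 protocol text for all samples and do not say whether non-tumor mice received an injection, and they give no age. Cells negative for CD45, CD11B and EPCAM, which mark leukocytes, myeloid cells and epithelial cells, were gated first, and tdTomato-positive cells were then taken as mural cells. The reporter follows Pdgfrb use at the time of tamoxifen, so fibroblasts with an active promoter are labelled as well as pericytes and smooth muscle cells. The metastasis model is 1 cancer line.

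The libraries held 7.11 M to 23.9 M counts. The breast library of mouse 51950 was the shallowest, with 7.11 M counts and 9189 genes detected against 17014 to 22781 in the other 8. Its log2 values correlated with those of the other breast libraries at a mean Pearson r of 0.648 across genes, against 0.837 to 0.847 for the other 3. For mouse 54135 the title and the cell type label name opposite sorts, and its libraries were placed by title. The library titled PDGFRb held 1067 CPM of Pdgfrb and 5 CPM of the endothelial gene Pecam1, and the one titled CD31 held 0.211 and 1268 CPM. CPM scale each gene's counts to a common library total, here the raw total and elsewhere the total scaled by TMM, a method that balances libraries. A gene with 3 counts stood at 0.127 to 0.484 CPM. Ribosomal protein genes took 2.79% to 4.11% of the counts in breast and 0.92% to 1.83% in non-tumor libraries, and the part of this in the results was not tested.

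The sort genes matched the mural label in all 9 libraries. Pdgfrb, the receptor used for the reporter, was at 1346, 932, 780 and 333 CPM in the breast libraries of mice 51950, 52599, 52865 and 53072, an order kept below. In the non-tumor libraries of mice 53680, 54132, 54135, 56727 and 56740 it was at 1205, 893, 920, 1537 and 1564 CPM. The groups overlapped, with the breast library of mouse 53072 lowest, and the difference was not called (log2 change -0.53 ± 0.36 SE, adjusted p = 0.45). Rgs5, a signalling regulator that marks pericytes, was at 3877, 2505, 2133 and 1724 CPM in breast and at 2121, 2972, 1788, 2748 and 2894 CPM in non-tumor libraries. Its log2 change was 0.03 ± 0.26 (adjusted p = 0.97), and the sign turned without mouse 51950 (-0.24).

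RNA of other cells differed between the groups. The summed level of 34 epithelial genes was 1857, 2848, 3646 and 6737 CPM in the breast libraries and 36.9 to 163 CPM in non-tumor libraries, despite the EPCAM gate. That of 34 mammary lineage genes, some of them in both lists, was larger. It was 11743, 13589, 21675 and 37712 CPM in breast and 3241 to 5307 CPM in non-tumor libraries. The library of mouse 53072 thus had the highest epithelial and the lowest Pdgfrb level. Sums of 17 astrocyte genes ran from 1338 to 2306 CPM in breast and from 3238 to 10313 CPM in non-tumor libraries, and sums of 40 neuron genes from 64.2 to 146 and from 78.2 to 3135 CPM, both highest in mouse 54135. Sums of 23 endothelial genes overlapped, at 989 to 2120 and 1150 to 1809 CPM, as did those of 25 microglia and macrophage genes, at 827 to 3009 and 1421 to 3407 CPM. Apoe alone made 441 to 1309 CPM of the microglia and macrophage sum in breast and 1340 to 3355 CPM in non-tumor libraries, while the median log2 change of the list was 2.84. The part of these cells in the changes below was not tested except where a value is given. In such bulk libraries fewer cells of a type and less RNA per cell cannot be told apart.

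**Figure D1:**
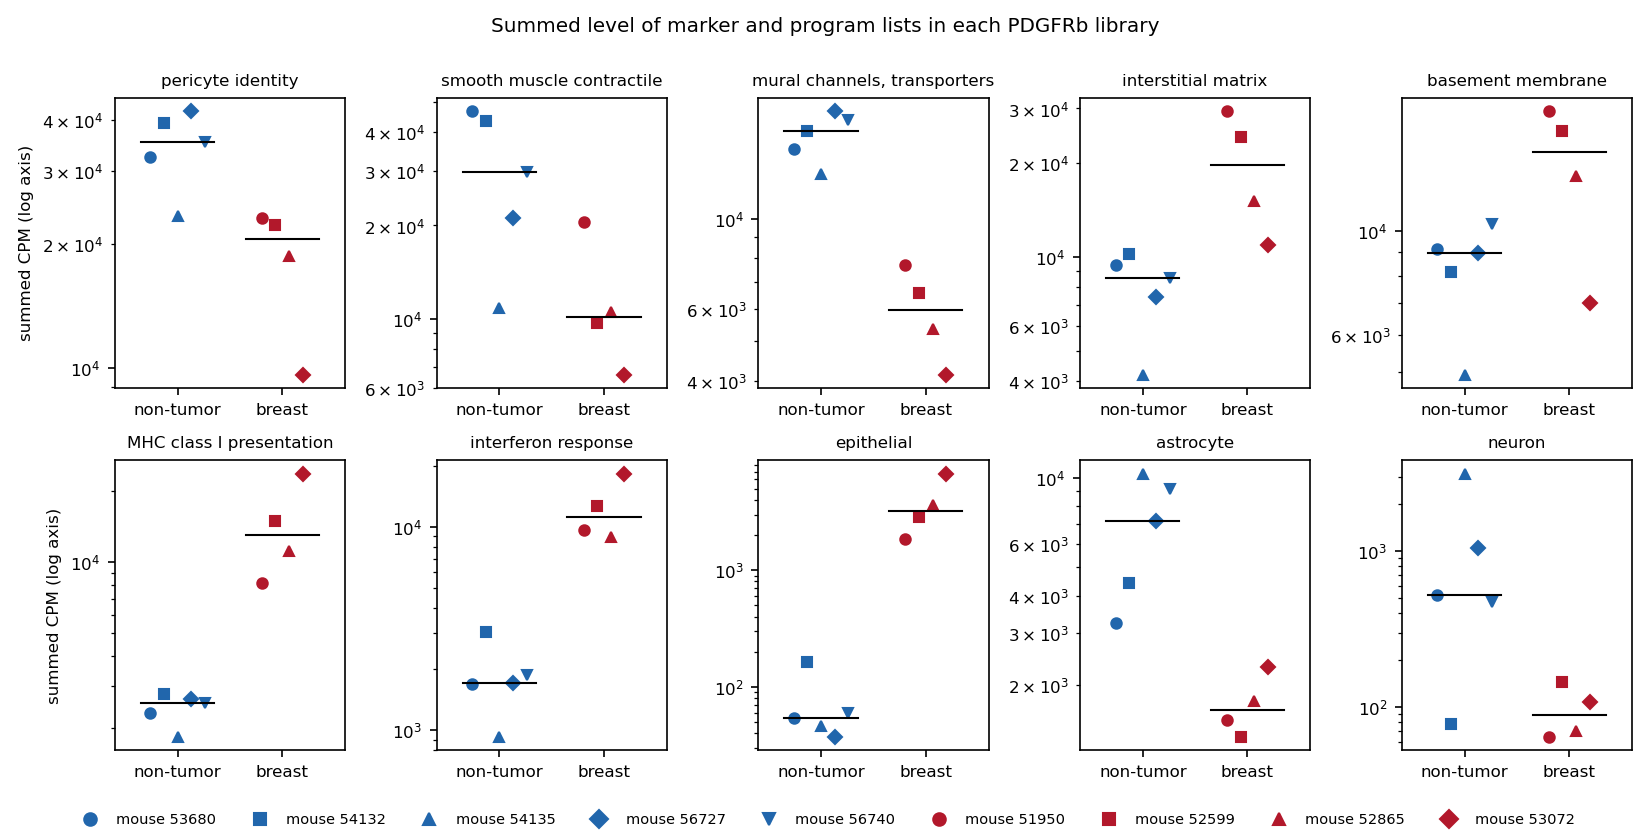
Summed CPM (log axis) of the genes of 10 lists in each of the 9 PDGFRb libraries, with non-tumor in blue, breast in red, 1 marker shape per mouse and a line at the group median. Mural channel and transporter genes, astrocyte genes and, by a narrow margin, pericyte genes sit lower in all 4 breast libraries. Interstitial matrix, MHC class I, interferon and epithelial genes sit higher, and smooth muscle, basement membrane and neuron genes overlap.

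With edgeR's quasi-likelihood test on 15876 genes, 564 genes were higher in breast BrM and 369 were lower at an adjusted p under 0.05, which is 3.55% and 2.32% of the genes tested. Of these 933 genes, 900 differed by at least 1 on the log2 scale and 878 did not overlap between the groups. A call favours genes whose groups stand apart, and the share without overlap among all genes tested is not given. The count of 878 is thus no separate support. The median log2 change of all genes tested was -0.21. Single libraries set the counts: without mouse 51950 the test called 1991 genes higher and 1727 lower, and without mouse 56740 it called 256 and 113. The other 7 fits without 1 library gave 273 to 482 higher and 139 to 290 lower, each of them below the full fit. Of the 933 genes, 931 were still called without mouse 51950. In that fit 11.7% of the genes tested were higher and 10.2% lower, the shares against which list counts without this mouse stand below. All list counts of the full fit stand against its 3.55% higher and 2.32% lower.

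A date stands in each library's column name, whose meaning the labels do not give. There were 4 dates, of which 2 hold both groups, each with 2 breast libraries and 1 non-tumor library. With the date as a covariate, 33 genes were called higher and 12 lower, so the calls below are calls without that term unless its adjusted p is given. Within the 2 shared dates, 932 of the 933 genes kept their direction on both dates. These genes were called on libraries that include those of the shared dates, and most do not overlap between the groups. Their direction within a date was thus largely set beforehand, and the count does not test the date. Among the genes named below, those called with the date in the fit included Fn1, Col6a3, Thbs1, Prelp, Atp13a5, Ecm2, B2m, H2-T23, Irf7, Ifitm3, Ly6e, Lgals9, Klf6, Ldha, Gapdh, Krt8, Dlx1 and Acsl6. Of the interferon list 5 were called with the date, of the interstitial matrix list 3 higher and 1 lower, and of the contractile list none.

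**Figure D2:**
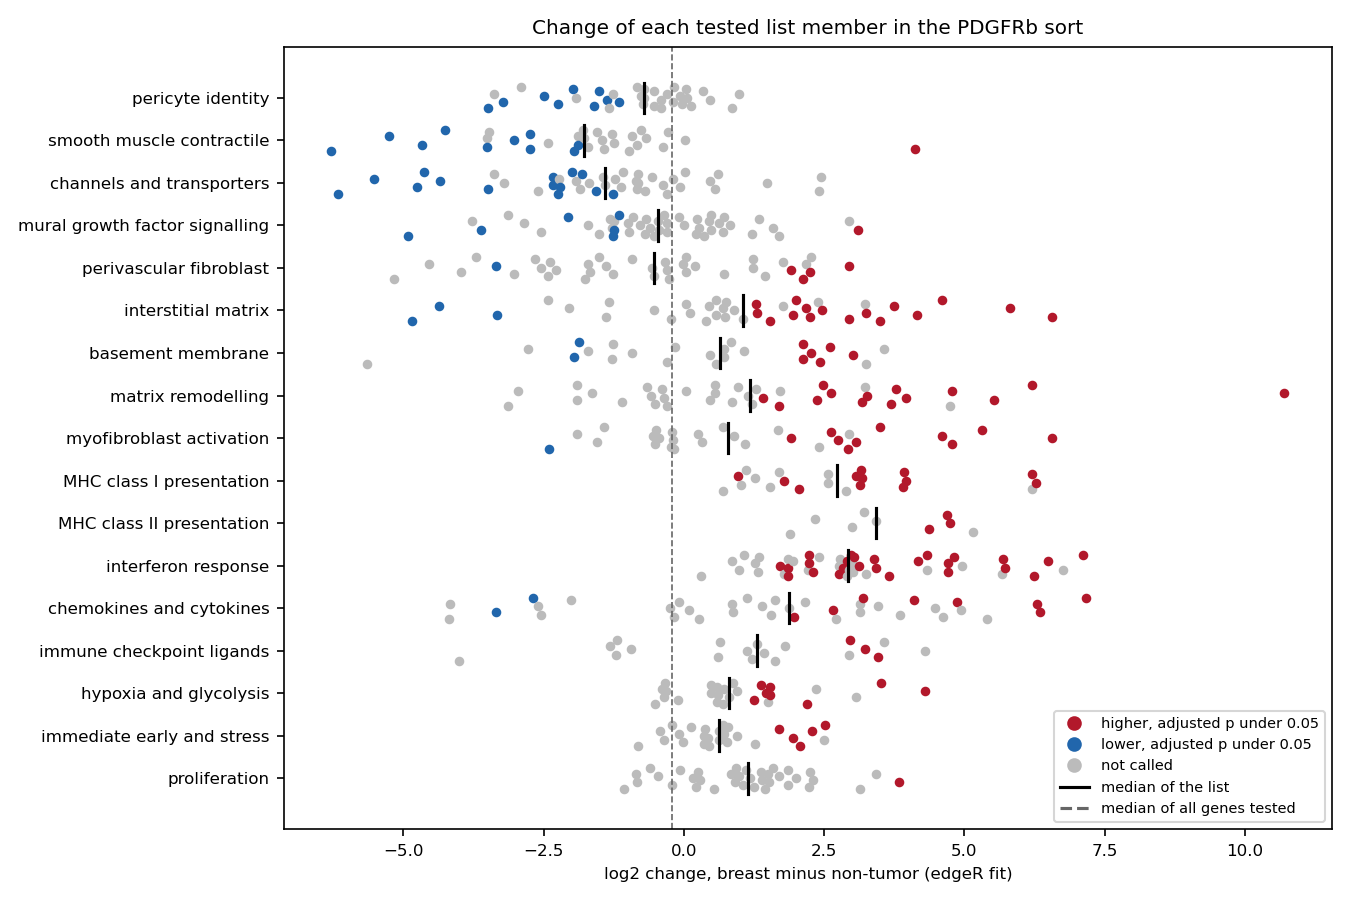
Log2 change (breast minus non-tumor) of each tested member of 17 gene lists, 1 point per gene, with called genes in red (higher) or blue (lower), the list median as a bar and the median of all genes tested, -0.21, as a dashed line. Called pericyte genes all lie below 0, and called MHC and interferon genes all lie above it.

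Pericyte genes did not fall as a block. Of 35 pericyte identity genes tested, 9 fell and none rose, beside 2.32% of all genes lower, and the list median was -0.71. The 9 were Vtn, Atp13a5, Ggt1, Slco3a1, Rgs4, Notch3, Ecm2, Slc19a1 and Zic1. Rgs5, the KATP channel pair Kcnj8 and Abcc9, the proteoglycan gene Cspg4 and Pdgfrb itself were not called. Log2 changes of the members not called ran from -3.39 (Slc6a13, adjusted p = 0.091) to 0.99 (Cd248, adjusted p = 0.052). The sum of the list was 9630 to 23154 CPM in breast and 23373 to 41881 CPM in non-tumor libraries, without overlap but by a narrow margin. Without mouse 51950, 14 fell and 1 rose.

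Atp13a5, a P-type ATPase gene used as a marker of brain pericytes, was at 109, 373, 285 and 180 CPM in the breast libraries and at 2055, 2715, 2074, 3650 and 2769 CPM in the non-tumor libraries. Every breast library lay below every non-tumor library, and the level was 11.2-fold lower (log2 change -3.49 ± 0.38, adjusted p = 0.0011, and 0.02 with the date in the fit). Ecm2, an extracellular matrix protein gene, was at 16.8, 39.3, 27.1 and 27 CPM against 205, 273, 197, 334 and 273 CPM, with a log2 change of -3.22 ± 0.33 (adjusted p = 0.00096). The groups stood far apart in this gene too. The folate carrier gene Slc19a1 was at 313, 193, 307 and 91.4 CPM against 898 to 1580 CPM (log2 change -2.49 ± 0.36), and the organic anion transporter gene Slco3a1 at 38.8 to 56.7 CPM against 178 to 261 CPM (-2.24 ± 0.25).

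Vtn, which encodes the secreted adhesion protein vitronectin and is among the most abundant pericyte transcripts, was at 4705, 4342, 4116 and 1829 CPM in breast and 8651, 12506, 6532, 11777 and 8854 CPM in non-tumor libraries. The groups did not overlap, and it was 2.58-fold lower (log2 change -1.37 ± 0.3, adjusted p = 0.025). Notch3, the Notch receptor of mural cells, was at 353, 363, 361 and 186 CPM against 521 to 926 CPM, a log2 change of -1.15 ± 0.28 (adjusted p = 0.037). Both calls were weak: that of Vtn was lost without mouse 52599, 52865, 53680, 56727 or 56740, and that of Notch3 without these mice, 53072 or 54135, while the log2 changes stayed between -1.5 and -1.08 and between -1.24 and -0.91.

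Of the identity genes that did not pass, the 3 that follow overlapped between the groups. Kcnj8, the pore of the KATP channel, was at 1961, 1805, 1060 and 530 CPM in breast and 924 to 2237 CPM in non-tumor libraries (log2 change -0.2 ± 0.38, adjusted p = 0.83). Abcc9, its regulatory subunit, was at 286, 607, 403 and 283 CPM against 446 to 1051 CPM (-0.83 ± 0.33, adjusted p = 0.18). Cspg4, which encodes NG2, was at 1211, 757, 911 and 422 CPM against 1022 to 1528 CPM (-0.72 ± 0.28, adjusted p = 0.17) and was called without mouse 51950 (-0.96, adjusted p = 0.037). In these 3 genes the lowest value was that of mouse 53072.

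A second scale, the log2 ratio of a gene to Pdgfrb in the same library, is not changed by RNA that holds neither gene. RNA of other cells that holds the gene but not Pdgfrb still raises it, so it does not separate genes such as B2m or Fn1 from carried-over RNA. It was added after the data were seen, for 27 genes, with exact 2-sided permutation tests over the 9 libraries, whose smallest p is 0.0079, adjusted over the 27. On it the breast difference was -2.95 for Atp13a5, -2.58 for Ecm2, -1.96 for Slc19a1 and -1.58 for Slco3a1 (each adjusted p = 0.016), and -0.76 for Vtn (adjusted p = 0.029, permutation test). Notch3, at -0.51, was not called on this scale (adjusted p = 0.12, permutation test). Rgs5 stood 0.65 higher relative to Pdgfrb and was not called (adjusted p = 0.063, permutation test).

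Smooth muscle genes fell in part, with wide spread. Of 31 contractile genes tested, 10 fell and 1 rose, with a median of -1.78, and without mouse 51950 19 fell and 1 rose. The 10 were Myh11, Myl9, Tpm2, Pln, Nrip2, Sncg, Wfdc1, Pcp4l1, Susd5 and Olfr558. Acta2, smooth muscle actin, was at 6034, 2409, 3184 and 1545 CPM in breast and 15035, 12380, 2821, 5501 and 8604 CPM in non-tumor libraries. The non-tumor libraries of mice 54135 and 56727 lay within the breast range, and Acta2 was not called (log2 change -1.43 ± 0.51, adjusted p = 0.13). Tagln, the actin-binding protein transgelin, had the same layout, at 2484, 738, 994 and 491 CPM against 950 to 5590 CPM (-1.55 ± 0.58, adjusted p = 0.16). Without mouse 51950 both were called, at -1.9 (adjusted p = 0.03) and -2.21 (adjusted p = 0.021).

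Myh11, the smooth muscle myosin heavy chain, was at 605, 105, 119 and 125 CPM in breast and 2586, 1677, 517, 1180 and 2064 CPM in non-tumor libraries. Only the breast library of mouse 51950 reached the non-tumor range, above mouse 54135. The log2 change was -2.75 ± 0.65 (adjusted p = 0.033) and -3.79 without mouse 51950, and the call was lost in 7 of the 9 fits without 1 library, the exceptions being mice 51950 and 54135. Pln, phospholamban, which restrains the calcium pump of the sarcoplasmic reticulum, was at 0, 1.24, 3.34 and 7.15 CPM against 280, 385, 96.9, 150 and 250 CPM (log2 change -6.28 ± 1, adjusted p = 0.0076). All 4 breast libraries were far below the non-tumor ones, and Pln was called in all 9 such fits (-7.15 without mouse 53072). Susd5, Olfr558 and Wfdc1 lay at 0 to 12.5 CPM in breast and 24.3 to 159 CPM in non-tumor libraries, with log2 changes of -5.25, -4.67 and -4.26. Their calls were kept without mice 51950, 52599, 54132 or 54135 for Susd5, without mouse 51950 for Olfr558 (-5.47 without mouse 52599) and without mice 51950 or 53072 for Wfdc1 (-5.27 without mouse 53072), and lost in the other such fits. Actg2, the enteric smooth muscle actin, was the 1 contractile gene that rose (log2 change 4.12, adjusted p = 0.019), near the 3.55% of all genes higher.

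Channel and transporter genes of mural cells fell in part. Of 43 tested, 14 fell and none rose, with a median of -1.41, and without mouse 51950 27 fell and 1 rose. They included the calcium handling genes Ryr2, Atp2a2, Atp2a3, Atp2b4 and Cacnb2, the potassium channel genes Kcna5 and Kcnma1, the sodium pump gene Atp1b2, the carriers Slc20a2, Slc38a11 and Slc30a10, and Atp13a5. Ryr2, the calcium release channel, was at 0, 0.169, 0.133 and 0.315 CPM in breast and 19.9, 14.7, 4.02, 6.15 and 16.6 CPM in non-tumor libraries (log2 change -6.17 ± 1.1, adjusted p = 0.0096). With 10 counts in all 4 breast libraries it was close to undetected there. Kcna5 was at 0 to 1.65 CPM against 13.1 to 70.4 CPM, and Kcnma1, the BK channel, at 0 to 1.24 CPM against 5.04 to 22.3 CPM. Both passed narrowly (adjusted p = 0.048 and 0.047). Kcna5 kept its call only without mouse 51950 (log2 change -5.53, and -6.37 without mouse 53072) and Kcnma1 only without mouse 51950 or 52599 (-4.64, and -5.86 without mouse 52599).

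Some members of this list are also used by astrocytes or neurons. Astrocyte sums did not overlap between the groups, and their part in these falls was not tested.

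**Figure D3:**
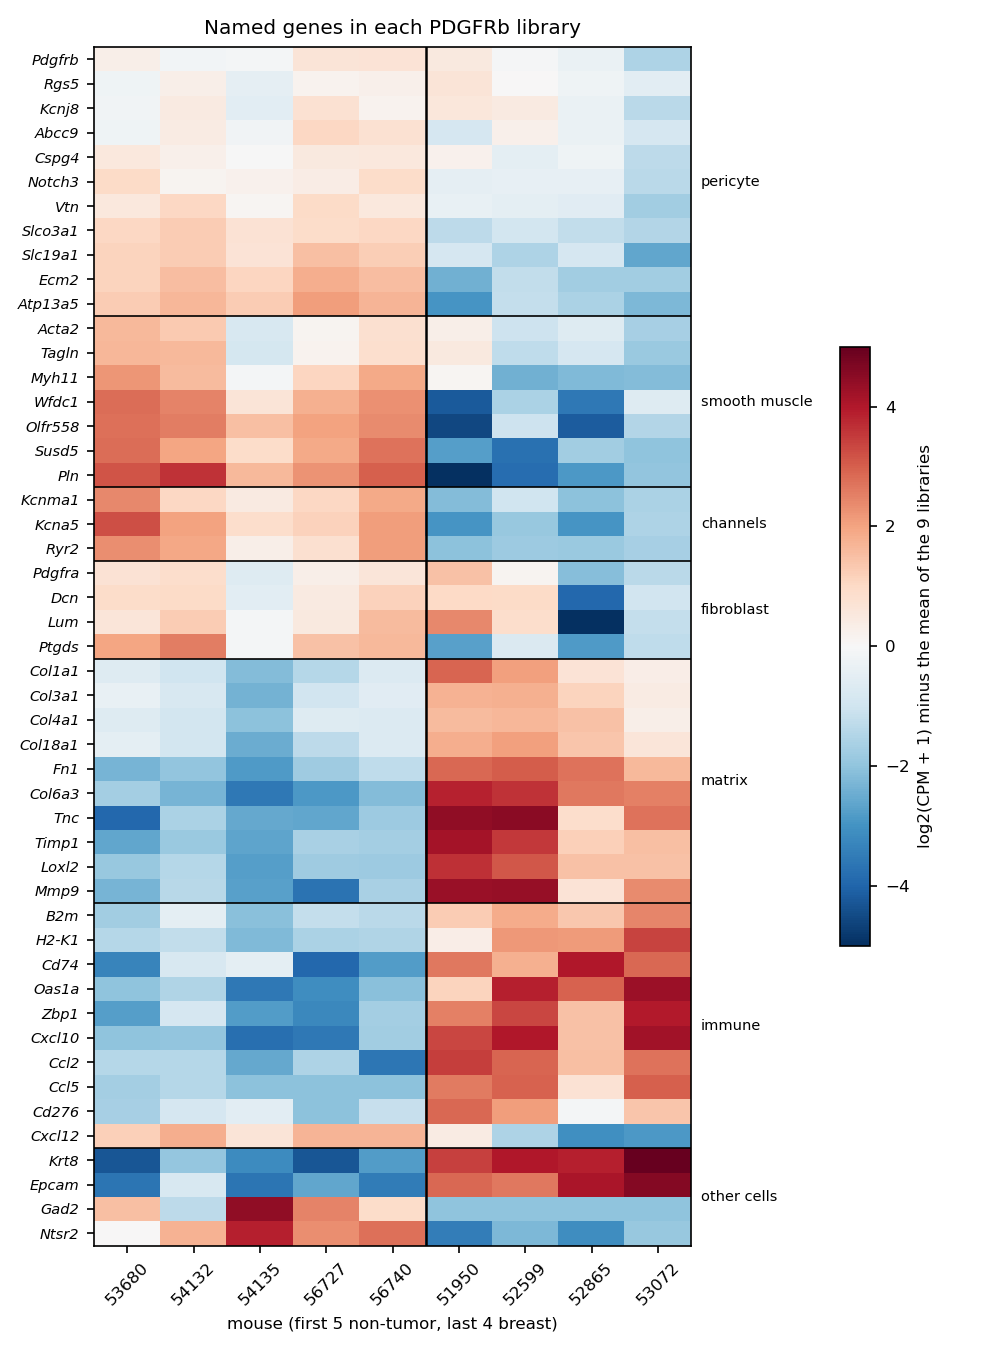
Level of 49 named genes in each PDGFRb library, as log2(CPM + 1) minus the mean of the 9 libraries, from blue (below) to red (above), with 5 non-tumor libraries left of the line and 4 breast libraries right of it. Atp13a5, Ecm2 and Pln are low in all 4 breast libraries, Fn1 and Col6a3 are high in all 4, and Rgs5 and Kcnj8 overlap between the groups.

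Fibroblast genes did not move one way. Of 38 perivascular fibroblast genes tested, 4 rose (Col1a1, Col3a1, Spp1, Lamb1) and 1 fell (Ptgds), with a median of -0.54. The 1 fall is near the 2.32% of all genes lower, and the rises stand beside 3.55% of all genes higher. Without mouse 51950, 5 rose and 13 fell. Pdgfra, the receptor that marks these fibroblasts, was at 168, 65.9, 13.1 and 23 CPM in breast and 38.2 to 112 CPM in non-tumor libraries (log2 change -0.3 ± 0.67, adjusted p = 0.86). Dcn, decorin, was at 625, 621, 19.8 and 161 CPM against 221 to 698 CPM (-0.53 ± 0.73, adjusted p = 0.76). Lum, lumican, was at 331, 113, 0 and 26.3 CPM against 57.8 to 186 CPM (0.03 ± 1.2, adjusted p = 0.99), and at -1.32 without mouse 51950. Among breast libraries all 3 were highest in mouse 51950 and lowest in mouse 52865, and the groups overlapped. Without mouse 51950 Pdgfra was at -1.29 and still not called (adjusted p = 0.1).

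Ptgds, prostaglandin D synthase, a gene of meningeal and perivascular fibroblasts, fell from 1664, 2478, 392, 1185 and 1317 CPM in non-tumor to 63.4, 253, 59.3 and 176 CPM in breast libraries. No library crossed (log2 change -3.35 ± 0.61, adjusted p = 0.011). Lamb1, the laminin beta 1 chain, rose from 42.7 to 142 CPM to 837, 379, 314 and 213 CPM (2.12 ± 0.46, adjusted p = 0.024), a call lost without mouse 53680 or 56740.

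More interstitial matrix genes rose than fell. Of 39 tested, 16 rose and 3 fell, beside 3.55% and 2.32% of all genes, with a median of 1.05. Those that rose were 9 collagen chains (Col1a1, Col3a1, Col5a1, Col5a2, Col5a3, Col6a1, Col6a2, Col6a3, Col8a1) and Fn1, Fbn1, Bgn, Tnc, Thbs1, Postn and Sparc. The small proteoglycan genes Ogn, Fmod and Prelp fell. Without mouse 51950, 18 rose and 6 fell.

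Fn1, fibronectin, was at 1600, 1776, 1423 and 667 CPM in breast and 42.6, 55, 29.9, 62.4 and 91.4 CPM in non-tumor libraries. Each breast library was above all non-tumor libraries, and the level was 24.3-fold higher (log2 change 4.6 ± 0.39, adjusted p = 0.00065, and 0.02 with the date in the fit). Col6a3, a collagen VI chain, was at 744, 623, 318 and 295 CPM against 14.9, 9.33, 3.29, 5.92 and 10.5 CPM (5.81 ± 0.51, adjusted p = 0.00065). Col1a1, the main fibrillar collagen chain, was at 2246, 1245, 487 and 377 CPM against 191, 150, 66.1, 111 and 186 CPM (2.95 ± 0.53, adjusted p = 0.01; 2.32 without mouse 51950). Tnc, tenascin C, a glycoprotein of wounds and tumors, was at 323, 345, 26.6 and 98.4 CPM against 0 to 4.07 CPM (6.56 ± 1.1, adjusted p = 0.0096). In these genes mice 51950 and 52599 were above 52865 and 53072, the reverse of their order in the epithelial sum. Fmod, fibromodulin, went from 45.5 to 191 CPM down to 0, 6.76, 0.311 and 10.8 CPM (-4.85 ± 1.2, adjusted p = 0.044), a call kept only without mouse 51950 among the fits without 1 library (-5.73 without mouse 53072).

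Relative to Pdgfrb in the same library, Fn1 was 5.25 higher, Col1a1 3.34 higher and Col4a1 2.9 higher on the log2 scale (each adjusted p = 0.016, exact permutation test). These values are larger than the changes in CPM, since Pdgfrb itself was at -0.53.

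Basement membrane genes split by chain. Of 24 tested, 6 rose (Col4a1, Col4a2, Col15a1, Col18a1, Lamb1, Nid2) and 2 fell (Lamb2, Sparcl1), with a median of 0.64, which was 0.04 without mouse 51950, when 8 rose and 5 fell. Col4a1, with Col4a2 the main collagen of vascular basement membranes, was at 6439, 6761, 5975 and 2637 CPM in breast and 1365, 1130, 516, 1360 and 1340 CPM in non-tumor libraries. It was 4.77-fold higher with no overlap (2.26 ± 0.34, adjusted p = 0.005) and was called in all 9 fits without 1 library. Col18a1, the source of endostatin, was at 1239, 1443, 924 and 538 CPM against 61.5 to 249 CPM (2.6 ± 0.41, adjusted p = 0.0059). Col15a1 and Nid2 rose by 3.02 ± 0.59 and 2.43 ± 0.49. Lamb1 rose while Lamb2, the laminin beta 2 chain of mature vessels, fell (-1.87, adjusted p = 0.015). The call of Col15a1 was lost without mouse 56740.

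Some genes that cut, cross-link or protect matrix rose. Of 38 matrix remodelling genes tested, 14 rose and none fell (median 1.17), and without mouse 51950 18 of 40 rose and 1 fell. The cross-linking enzyme gene Lox (-1.91), the protease genes Mmp16 (-3.13) and Adamts5 (-1.64) and the collagen hydroxylase gene P4ha1 (-0.52) were among those not called. Timp1, an inhibitor of metalloproteinases, was at 300, 194, 36.6 and 46.5 CPM in breast and 1.73, 3.54, 1.69, 4.48 and 4.14 CPM in non-tumor libraries (5.53 ± 0.75, adjusted p = 0.0027; 4.88 without mouse 51950). Loxl2, a collagen cross-linking oxidase, was at 455, 312, 97.4 and 97.1 CPM against 4.31 to 12.5 CPM (4.77 ± 0.57, adjusted p = 0.0016). Mmp9, a gelatinase, was at 277, 291, 21.3 and 71.3 CPM against 0.0932 to 4.45 CPM (6.21 ± 1.1, adjusted p = 0.0096). The groups stood apart in all 3 genes. Mmp10, stromelysin 2, was at 0.807, 231, 1.16 and 72.6 CPM against at most 0.0969 CPM, so 2 of the 4 breast libraries carried nearly all of it (10.7 ± 2, adjusted p = 0.012; 9.1 without mouse 52599).

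Genes of myofibroblast activation rose in part. Of 30 tested, 10 rose, among them Postn, Tnc, Thy1, Fn1, Spp1, Nnmt, S100a6, Loxl2 and Runx1, with a median of 0.79. Palld was the 1 fall, near the 2.32% of all genes lower. Without mouse 51950, 12 rose and 4 fell. Thy1, a surface protein of fibroblasts and neurons, was at 66.3, 123, 34.1 and 46.1 CPM in breast and 0.233 to 3.16 CPM in non-tumor libraries (5.31 ± 0.83, adjusted p = 0.0059). The contractile pair of this list, Acta2 and Tagln, and Fap, fibroblast activation protein (log2 change -1.91, adjusted p = 0.35), were not called.

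Growth factor pathway genes of mural cells mostly did not pass. Of 47 tested, 1 rose (Tie1) and 6 fell (Notch1, Notch3, Heyl, S1pr1, Bmp4, Id1), with a median of -0.47. The 1 rise is near the 3.55% of all genes higher, and the falls stand beside 2.32% of all genes lower. Without mouse 51950, 6 of 48 rose, near the share of all genes, and 13 fell. The receptors Notch1 and Notch3 and the Notch target Heyl fell by 1.26, 1.15 and 1.24 on the log2 scale. Bmp4, a bone morphogenetic protein, and Id1, a target of that pathway, fell by 3.61 ± 0.91 and 2.06 ± 0.48. S1pr1, a sphingosine phosphate receptor, was at 0.484, 11.8, 17.3 and 13.6 CPM in breast and 32.7, 105, 629, 389 and 496 CPM in non-tumor libraries (-4.92 ± 1.1, adjusted p = 0.024). Astrocytes also carry S1pr1, and its non-tumor values are highest in mouse 54135. Tie1, a receptor of endothelial cells, was at 172, 33.7, 56.4 and 14.9 CPM against 3.87 to 10.9 CPM (3.11 ± 0.75, adjusted p = 0.037; 2.12 without mouse 51950). Among the fits without 1 library, calls were kept without mice 51950, 53680, 54132 or 54135 for S1pr1, without mouse 51950 for Bmp4, without mice 51950 or 54135 for Id1 and without mice 51950 or 53072 for Tie1.

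Angpt1, the pericyte ligand of the endothelial receptor TIE2, was at 0, 3.94, 1.51 and 5.82 CPM in breast and 31, 19.7, 14.3, 35.1 and 23.9 CPM in non-tumor libraries. The groups did not overlap, but the test did not call it (-3.13 ± 1.1, adjusted p = 0.12), except without mouse 51950 (-2.73, adjusted p = 0.0048). Cxcl12, a chemokine that mural and endothelial cells secrete, was at 154, 39.6, 12.8 and 15.2 CPM against 268, 408, 181, 378 and 382 CPM. It also did not overlap and did not pass (-2.55 ± 0.71, adjusted p = 0.062), except without mouse 51950 (-3.84, adjusted p = 0.00069). Relative to Pdgfrb, the log2 difference was -2.55 for Cxcl12 (adjusted p = 0.016) and -2.74 for Angpt1 (adjusted p = 0.04, exact permutation tests). The ligands Pdgfa (0.36), Vegfa (0.48) and Angpt2 (-0.35) and the receptor Tgfbr2 (-0.31) were not called.

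Antigen presentation by MHC class I, which shows peptides from inside the cell to CD8 T cells, rose in part. Of 22 genes tested, 12 rose and none fell, with a median of 2.73, beside 3.55% of all genes higher. The 12 covered the heavy chains H2-K1, H2-D1, H2-Q4, H2-Q6, H2-Q7 and H2-T23, the light chain B2m, the loading factors Tapbp and Calr, and the proteasome parts Psmb8, Psmb9 and Psme2. Without mouse 51950, 20 rose.

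B2m was at 1508, 2286, 1616 and 3392 CPM in breast and 189, 453, 146, 275 and 245 CPM in non-tumor libraries, 8.41-fold higher with no overlap (3.07 ± 0.37, adjusted p = 0.0016, and 0.02 with the date in the fit). H2-K1, a classical heavy chain, was at 635, 2295, 2241 and 5253 CPM against 187, 214, 111, 168 and 179 CPM (3.92 ± 0.5, adjusted p = 0.0022). H2-Q6 and H2-Q7, non-classical chains, rose by 6.21 ± 0.71 and 6.27 ± 0.7 (5.39 and 5.45 without mouse 53072), and H2-Q4 by 3.96 ± 0.82. Heavy chain genes are near copies of each other, so reads may have been shared between them and the single values are uncertain. The call of H2-Q4 was lost without mouse 53072, 56727 or 56740. In contrast to matrix genes, mouse 53072 was highest and mouse 51950 lowest, as in the epithelial sum, and the part of epithelial RNA in the MHC rise was not tested. Relative to Pdgfrb, B2m was 3.75 higher on the log2 scale (adjusted p = 0.016).

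MHC class II genes, normally used by professional antigen-presenting cells, were fewer and more spread. Of 9 tested, 3 rose (H2-Aa, H2-Ab1, Cd74), with a median of 3.42, and without mouse 51950 7 of 11 rose. Cd74, the invariant chain, was at 514, 279, 1301 and 605 CPM in breast and 7.33, 46.7, 56.9, 4.43 and 11 CPM in non-tumor libraries (4.74 ± 0.82, adjusted p = 0.0096). H2-Aa was at 63.9, 85.3, 360 and 161 CPM against 0.326 to 16.7 CPM (4.69 ± 0.98). H2-Ab1 was at 5.97, 135, 461 and 219 CPM against 3.92 to 20.6 CPM, so that mouse 51950 fell in the non-tumor range (4.36 ± 0.94). Mouse 52865 was highest in all 3 and also had the highest microglia and macrophage sum of the breast libraries, 3009 CPM. H2-Aa lost its call without mouse 52865 (4) or 56740 and was at 5.45 without mouse 54135, and H2-Ab1 lost its call without mouse 52865 (3.6), 53680, 54132, 56727 or 56740.

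Interferon response genes gave the largest count. Of 48 tested, 25 rose and none fell, with a median of 2.93, and without mouse 51950 45 rose. Interferons act through transcription factors, among them those of the IRF family, which bind elements before the genes they switch on. The called genes include the factors Irf1, Irf7 and Irf8, the antiviral genes Oas1a, Oasl1, Oasl2, Mx2, Isg15, Bst2 and Ifitm3, and the GTPases Gbp2, Gbp4, Iigp1 and Ifi47, which interferon gamma induces. Irf7 rose by 4.71 (adjusted p = 0.00096), Isg15 by 3.42 (adjusted p = 0.0096) and Ly6e by 4.82 (adjusted p = 0.0023) on the log2 scale.

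The core of the element that interferon-activated factors bind is GAAANNGAAA, N being any base. It was searched on both strands in the 250 bases before the start of each gene in RefSeq promoters of build GRCm38.p6, 1 promoter a symbol. Of 27025 promoters 821 held it (3.04%). Of the 25 called interferon genes 17 had a promoter in the table and 6 of these held a core (35.3%), beside 10 of 17 among the 23 that were not called (58.8%). The core was thus not more frequent in the called genes than in the others. The windows below are shown because these genes rose and hold the core, with the core (read here on either strand, and overlapping where cores are stacked) in capitals. They lie upstream of the gene start, outside the transcript, at chr4:156200867-156200904 (minus strand) for Isg15, chr5:120907526-120907553 (minus strand) for Oas1a, chr19:34583365-34583424 (plus strand) for Ifit3, chr3:142620596-142620621 (plus strand) for Gbp2 and chr2:122147540-122147565 (plus strand) for B2m. A match is a description of letters, not of binding.
Isg15: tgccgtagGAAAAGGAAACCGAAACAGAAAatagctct
Oas1a: cttctcggGAAATGGAAACTGAAAatct
Ifit3: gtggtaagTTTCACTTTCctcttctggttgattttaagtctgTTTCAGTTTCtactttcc
Gbp2: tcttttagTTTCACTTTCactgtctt
B2m: aagaacatGAAACTGAAAatgggaaa

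Oas1a, a sensor of double-stranded RNA with 2 overlapping cores in its window, was at 24.8, 173, 90.7 and 228 CPM in breast and 1.93, 3.16, 0, 0.373 and 1.78 CPM in non-tumor libraries (6.48 ± 1.2, adjusted p = 0.012). Zbp1, a sensor of nucleic acids in Z form, was at 59.7, 107, 28.5 and 167 CPM against 0.14 to 4.99 CPM (5.72 ± 1.1, adjusted p = 0.013). The groups did not overlap in either gene (Zbp1 at 6.64 without mouse 54132). Oasl1 was at 0, 71.4, 22.6 and 81.5 CPM against 0 to 0.846 CPM, and Gbp4 at 0.323, 51.7, 25.9 and 94.5 CPM against 0.0666 to 2.24 CPM. Both were at or near 0 in mouse 51950, where they overlapped the non-tumor range. Oasl1 (7.11 ± 1.8) was at 7.91 without mouse 56740 and Gbp4 (6.23 ± 1.6) at 5.53 without mouse 53072. Each kept its call in 1 fit without 1 library, that without mouse 51950, of 9 for Oasl1 and of 8 with a value for Gbp4. Summed interferon genes stood at 8979 to 18350 CPM in breast and 926 to 3034 CPM in non-tumor libraries, highest in mouse 53072. Oas, Ifit and Gbp genes have near copies, and their single values are uncertain.

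**Figure D4:**
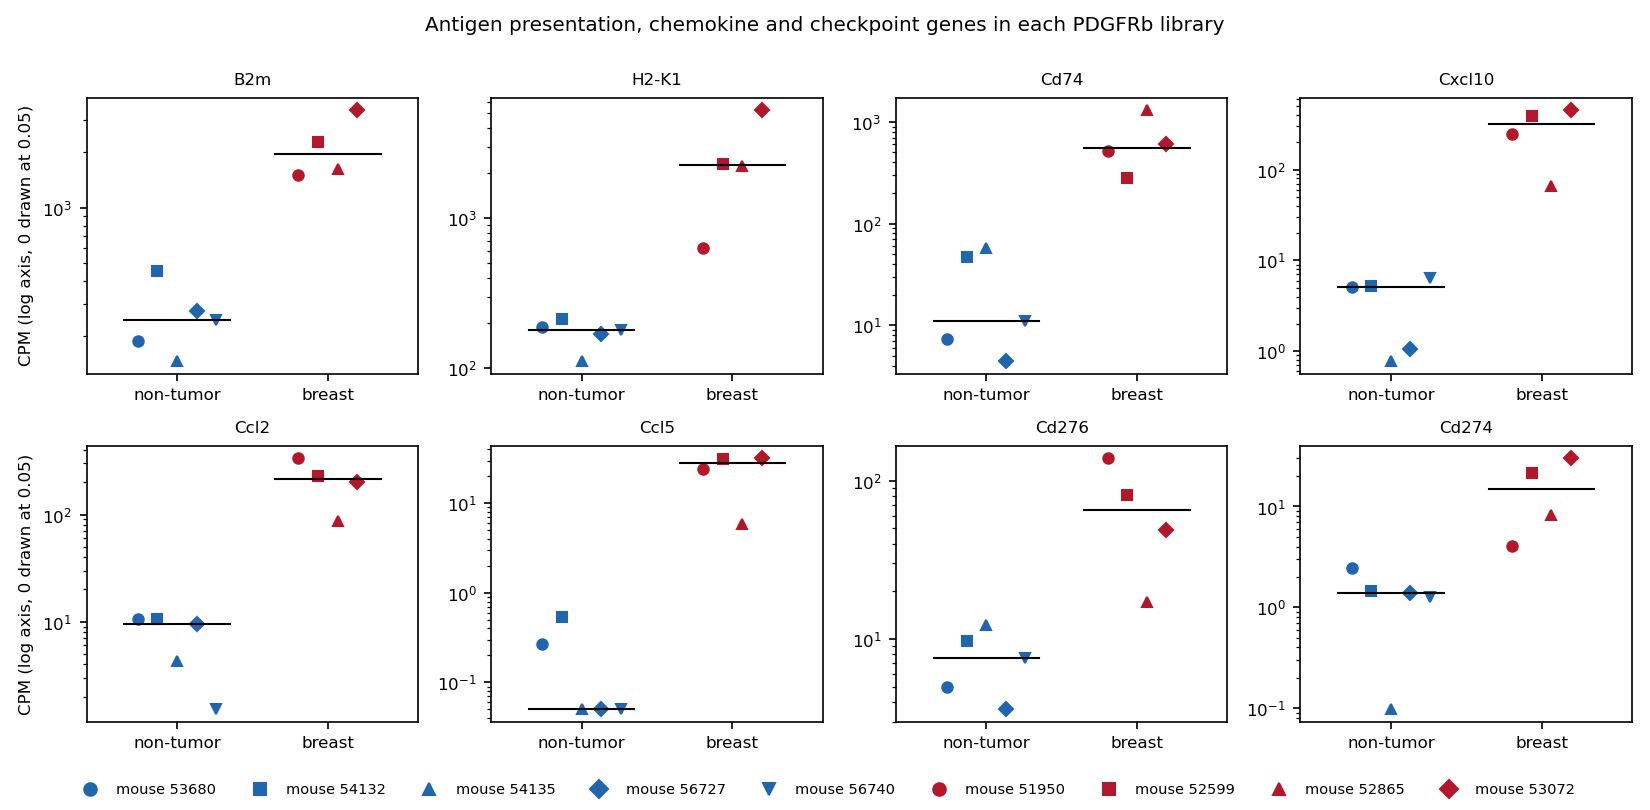
CPM (log axis, values of 0 or under 0.05 drawn at 0.05) of 8 antigen presentation, chemokine and checkpoint genes in each PDGFRb library, with non-tumor in blue, breast in red and a line at the group median. The breast libraries lie above all non-tumor libraries in each of the 8 genes, of which Cd274 was not called.

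Chemokine and cytokine genes rose in part. Of 37 tested, 8 rose (Ccl2, Ccl5, Ccl7, Ccl11, Cxcl1, Cxcl2, Cxcl10, Cxcl16) and 2 fell (Ccl19, Ackr3), beside 3.55% and 2.32% of all genes. The median was 1.87, and without mouse 51950 17 of 40 rose and 7 fell. Ccl2, which draws monocytes, was at 334, 229, 87.2 and 199 CPM in breast and 10.5, 10.5, 4.26, 9.51 and 1.52 CPM in non-tumor libraries (4.87 ± 0.63, adjusted p = 0.0023), and relative to Pdgfrb it was 5.53 higher on the log2 scale (adjusted p = 0.016). Cxcl10, an interferon-induced ligand of CXCR3 on T cells, was at 245, 395, 66.5 and 452 CPM against 5.13, 5.2, 0.775, 1.07 and 6.34 CPM (6.29 ± 0.81, adjusted p = 0.0023). Both stood apart in all libraries and were called in all 9 fits without 1 library. Ccl5, which draws T cells and monocytes, was at 24.4, 31.4, 5.87 and 31.7 CPM against at most 0.536 CPM (7.16 ± 1.5, adjusted p = 0.021), a call lost without mouse 52599, 53680, 56727 or 56740 (8.47 without mouse 54132). Cxcl2, a neutrophil attractant, was at 135, 6.7, 15.6 and 3.77 CPM against at most 1.45 CPM. Its log2 change was 6.35 ± 1.6 (adjusted p = 0.041), 4.14 without mouse 51950 and 7.31 without mouse 54132, and its call was kept only without mouse 51950 or 53072.

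Of 19 immune checkpoint ligand genes tested, 3 rose (Cd276, Lgals9, Lgals3) and none fell, with a median of 1.31. Without mouse 51950, 9 of 20 rose and 2 fell. Cd276, which encodes B7-H3, was at 138, 81.1, 17.1 and 48.4 CPM in breast and 5, 9.65, 12.3, 3.59 and 7.61 CPM in non-tumor libraries (3.22 ± 0.7, adjusted p = 0.024). The groups stood close in mouse 52865, and the call was lost without mouse 52599, 53680, 56727 or 56740. Lgals9, the galectin ligand of TIM-3, was at 667, 624, 477 and 622 CPM against 72.5, 127, 33.4, 70.1 and 81.2 CPM, with little spread within breast (2.96 ± 0.34, adjusted p = 0.0013, and 0.023 with the date in the fit). Lgals3 was at 90.7, 196, 179 and 233 CPM against 10.1 to 20.2 CPM (3.45 ± 0.4). Cd274, which encodes PD-L1, was at 4.03, 21.3, 8.23 and 30 CPM against 0.0969 to 2.46 CPM, without overlap, and did not pass (3.57 ± 0.98, adjusted p = 0.059). It was called without mouse 51950 (3.89, adjusted p = 0.0063).

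Adhesion and complement lists had 1 called gene each, near the 3.55% of all genes higher. Of 14 leukocyte adhesion genes tested, Cd44, the hyaluronan receptor, rose (3.87 ± 0.81, adjusted p = 0.021), with 7.74 CPM in mouse 51950 and 203, 219 and 242 CPM in the other breast libraries against 4.6 to 20.6 CPM. Its call was kept without mouse 51950 or 54132 and lost in the other 7 such fits. Vcam1, an adhesion receptor for leukocytes, was at 64.4, 41.6, 32.9 and 34.9 CPM in breast and 60.5 to 124 CPM in non-tumor libraries, overlapping in mouse 51950 (-1.1 ± 0.38, adjusted p = 0.12). Without mouse 51950 it was called lower (-1.35, adjusted p = 0.0046). Of 20 complement genes Cfb, factor B, rose from 0.92 to 7.32 CPM to 108, 73.5, 12.9 and 85.3 CPM (4.34 ± 0.82, adjusted p = 0.013). Without mouse 51950, 3 of 14 adhesion genes rose and 3 fell, and 8 of 20 complement genes rose, beside 11.7% and 10.2% of all genes.

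Some stress and metabolic genes rose. Of 26 immediate early genes tested, 5 rose (Egr2, Ier2, Ier3, Klf6, Myc) and none fell, with a median of 0.62, and Fos (-0.01), Jun (0.35) and Egr1 (0.62) were not called. Klf6, a zinc finger factor, was at 1142, 493, 564 and 891 CPM in breast and 206, 139, 97.9, 172 and 177 CPM in non-tumor libraries (2.29 ± 0.31, adjusted p = 0.0026). Of 27 hypoxia and glycolysis genes, 8 rose and none fell (median 0.81). They were the glycolytic enzymes Ldha, Pgk1, Pfkp, Aldoa, Gapdh, Pkm and Hk2 and the oxygen sensor Egln3. Ldha, lactate dehydrogenase A, was at 1552, 2623, 3368 and 2715 CPM against 586, 591, 450, 599 and 593 CPM, without overlap (2.19 ± 0.23, adjusted p = 0.00096). Hk2, a hexokinase, was at 94.5, 44.3, 12.1 and 39.5 CPM against 1.31 to 4.31 CPM (4.3 ± 0.77, adjusted p = 0.01). Egln3 was at 92.7, 105, 32.2 and 56.8 CPM against 3.26 to 8.84 CPM (3.51 ± 0.62, adjusted p = 0.0096). The groups did not overlap in these 2 genes either. The hypoxia targets Vegfa, Adm and Slc2a1 did not pass. Without mouse 51950, 13 of this list rose.

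Of 36 proliferation genes, only Ccnb2, cyclin B2, rose, near the 3.55% of all genes higher. It was at 312, 102, 92 and 85 CPM against 2.57 to 22 CPM (3.83 ± 0.69, adjusted p = 0.011, and 3.16 without mouse 51950). Summed proliferation genes overlapped, at 1915 to 3251 CPM in breast and 390 to 3295 CPM in non-tumor libraries, where mouse 54135 was highest. Without mouse 51950, 7 rose.

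Epithelial RNA was present in every breast library, and the cells it came from were not tested. Of 29 epithelial genes tested, 16 rose and none fell (median 6.48), and of 20 mammary lineage genes 10 rose (median 5.64). Krt8, a keratin of simple epithelia, was at 406, 612, 563 and 1320 CPM in breast and 0.933, 8.95, 3.29, 0.932 and 4.48 CPM in non-tumor libraries (7.6 ± 0.79, adjusted p = 0.00096; 8.22 without mouse 54132). Epcam, the marker of the gate, was at 90, 77.9, 214 and 299 CPM against 0 to 6.27 CPM (6.83 ± 1.6, adjusted p = 0.029), a call kept in 3 of the 9 fits without 1 library, those without mice 51950, 54132 (9.08) and 54135. Krt18 was at 331, 761, 828 and 1625 CPM against 0.999 to 33.2 CPM (6.58 ± 1.1; 8.06 without mouse 54132). Plet1, a progenitor surface protein, was at 17.6, 131, 196 and 415 CPM against 0 to 4.56 CPM (7.29 ± 1.5; 8.96 without mouse 54132), a call lost without mouse 53072 (6.57), 56727 or 56740. In these 2 genes, as in the epithelial sum, levels were lowest in mouse 51950 and highest in mouse 53072. Esrp2, an epithelial splicing factor, went the other way, at 316, 14.1, 7.61 and 27 CPM, and was 7.41 higher on the log2 scale or 4.93 without mouse 51950. Elf5 and Grhl2, transcription factors of such epithelia, rose by 6.55 ± 1.6 and 7.53 ± 1.4. Grhl2 was at 8.8 without mouse 56727, and Elf5 kept its call only without mouse 51950 or 54132 (8.99). Sox10, in both the mammary and the oligodendrocyte list, was at 112, 87, 134 and 171 CPM against 0.338 to 3.73 CPM (6 ± 0.81, adjusted p = 0.0027).

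Neuron genes were higher in 4 of the 5 non-tumor libraries than in any breast library by their sum, and the library of mouse 54132 lay within the breast range. Of 28 neuron genes tested, 4 fell (Gad2, Dlx1, Dlx2, Sp9) and none rose. These are genes of inhibitory neurons and of their precursors. Gad2, a GABA synthesis enzyme, had no count in any breast library and was at 10.5, 0.643, 87.6, 21.8 and 6.6 CPM in non-tumor libraries, at least 516-fold higher there against 3 counts over the breast group (adjusted p = 0.027). Dlx1 was at 38.1, 0.107, 249, 69.8 and 31.3 CPM with 1 count in all breast libraries. Its ratio is 4733 with a 95% counting interval of 849 to 186959. Both were highest in mouse 54135 and lowest in mouse 54132. The fitted change of Gad2 went from -11.81 to -10.39 without mouse 54135, and its call was kept only without mouse 51950, 54132 or 54135. That of Dlx1 went from -11.61 to -13.44 without mouse 53072, where its call was lost. Dlx1 had a value in only 5 of the 9 fits without 1 library and was called in 4. Dlx2 and Sp9 also had a value in 5 such fits, and each was called in 2.

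Of 17 astrocyte genes, 4 fell, among them Slc1a2, Gjb6 and Ntsr2, and Gfap rose. Gfap was the 1 rise, near the 3.55% of all genes higher. Slc1a2, the main astrocyte glutamate transporter, was at 1.61, 7.55, 28.9 and 35.8 CPM in breast and 43.3, 180, 669, 332 and 520 CPM in non-tumor libraries (-4.23 ± 0.99, adjusted p = 0.032), a call kept only without mouse 51950, 53072, 53680 or 54132. Gfap, the filament of reactive astrocytes, was at 130, 127, 321 and 75.8 CPM against 3.16 to 47.3 CPM (2.88 ± 0.74, adjusted p = 0.046). Its call was lost in all fits without 1 library but that without mouse 51950. Ttr, transthyretin of the choroid plexus, was at 0.161, 0.169, 7.96 and 0.865 CPM against 67.6 to 1101 CPM (-7.46 ± 1.5, adjusted p = 0.016; -9.97 without mouse 52865 and -6.68 without mouse 54135). Of 20 microglia and macrophage genes none rose and 1 fell, Apoe (-1.48 ± 0.36, adjusted p = 0.039, kept only without mouse 51950 or 53680), though the list median was 2.84. That 1 fall is near the 2.32% of all genes lower. The complement genes C1qa, C1qb and C1qc, which microglia make, were at 5.82, 5.51 and 5.41 and not called (adjusted p = 0.087, 0.087 and 0.056). C1qc was at 136, 6.42, 179 and 33.7 CPM against 0 to 7.72 CPM, overlapping in mouse 52599. Without mouse 51950, 10 of the list rose. Of 9 lymphocyte and neutrophil genes and 4 erythroid genes none was called by edgeR, and without mouse 51950 5 lymphocyte or neutrophil genes rose.

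Endothelial genes were mixed. Of 21 tested, Flt1, Tie1 and Plvap rose and Slco1a4 fell, while Pecam1 and Cldn5 did not pass. Slco1a4 was the 1 fall, near the 2.32% of all genes lower. Flt1, a VEGF receptor, was at 369, 341, 212 and 168 CPM in breast and 31.4 to 75.8 CPM in non-tumor libraries (2.55 ± 0.36, adjusted p = 0.0037). The defining endothelial gene Pecam1 stood at a mean of 3.1 CPM in breast and 5.2 CPM in non-tumor libraries. Its log2 change was -0.74 (adjusted p = 0.77). Plvap and Slco1a4 kept their calls only without mouse 51950 among the fits without 1 library (Plvap 3.63, and 2.7 without it).

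The largest rises without overlap, at a mean of at least 3 log2 CPM, were Wfdc5, Aldh3b2, Atp6v1b1, Mmp10, Nectin4, Irx5, Dlk1, Slc1a6, Papln and Krt8. Wfdc5, a secreted protease inhibitor gene of epithelia, was at 178, 6.93, 11.7 and 41.4 CPM with no count in non-tumor libraries, at least 1129-fold higher against 3 counts over the non-tumor group (adjusted p = 0.012; fitted log2 change 13.03, and 11.57 without mouse 51950). Nectin4, an epithelial adhesion molecule, was at 3.06, 14, 24.3 and 39.2 CPM against 1 count in 5 libraries, a ratio of 2205 (95% counting interval 395 to 87168). Aldh3b2, an aldehyde dehydrogenase gene, stood at 74.2, 30.2, 47.3 and 101 CPM against 2 counts, a ratio of 2809 (interval 777 to 23208). Dlk1, a paternally expressed Notch-like ligand, was at 307, 43.2, 60.1 and 36.7 CPM against 0 to 0.484 CPM (9.2 ± 1.3, adjusted p = 0.0032; 7.93 without mouse 51950 and 10.04 without mouse 54135). Irx5 and Slc1a6 rested mainly on mouse 51950, at 90 and 128 CPM there and at most 12.8 and 2.27 CPM elsewhere, with log2 changes of 9.57 and 8.43. Without that mouse Irx5 was at 7.75 and Slc1a6 at 4 and not called (adjusted p = 0.063), and Slc1a6 also lost its call without mouse 53680 (9.3) or 54135. Slc1a6 had a value in only 5 of the 9 fits without 1 library and was called in 2.

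The largest falls were Miat, Gad2, Acsl6, Dlx1, Fam205a3, Fgf13, Gabrg1, Slc47a1, Penk and Slc39a12. Fgf13, an intracellular FGF homologue that binds sodium channels, had no count in breast and was at 16.7, 15.7, 29.2, 11.7 and 16.4 CPM in non-tumor libraries, at least 353-fold higher there (adjusted p = 0.0035). Fam205a3 was likewise at 0 in breast and at 23, 35.8, 10.6, 16.7 and 15.2 CPM, at least 387-fold higher (adjusted p = 0.0038). Gad2 and Miat ranged more widely, from 0.643 to 87.6 and from 0.75 to 84.9 CPM, while Fgf13 and Fam205a3 were within 10.6 to 35.8 CPM in all non-tumor libraries. Gad2, Miat and Fgf13 (29.2 CPM) were all highest in mouse 54135, and Fam205a3 was lowest there (10.6 CPM). Slc39a12, a zinc transporter of astrocytes, was at 3.46 to 103 CPM against at most 0.55 CPM. Penk, proenkephalin, was at 7.83 to 45.8 CPM with 2 counts in breast, a ratio of 752 (95% counting interval 208 to 6213).

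A last comparison asked which breast changes differed between the mural sort and the endothelial sort, taken as CD31-positive cells through the same first gate (5 breast and 5 non-tumor libraries, 13.6 M to 20.8 M counts). Of 17568 genes tested for this interaction, 504 had a higher breast effect in the mural sort and 826 a lower one, 2.87% and 4.7%. All 9 mice of the mural libraries gave both sorts. With the mouse as a replicate block, 148 and 186 genes were called, and all 1330 genes kept their direction. Without mouse 51950, 1009 and 1688 were called, and with the libraries of mouse 54135 placed by cell type label 6 and 18.

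Most interferon and MHC class I genes had a higher breast effect in the mural than in the endothelial sort without the block. Of 48 interferon genes 31 had a higher effect in the mural sort and none a lower one (20 with the block), and of 22 MHC class I genes 14 and none (8 with the block). The log2 change of B2m was 3.05 in the mural and 0.51 in the endothelial sort, a difference of 2.55 ± 0.42 (adjusted p = 0.00088; 0.00067 with the block). Its CD31 level was 1632 ± 418 CPM (SD, n = 5) in non-tumor and 2322 ± 560 CPM (n = 5) in breast libraries. That of Fn1 was 4.6 in the mural and -0.22 in the endothelial sort (difference 4.82 ± 0.46, adjusted p = 3.6e-06; 0.00024 with the block), where it stood at 2191 ± 261 and 1887 ± 745 CPM. Cd274 differed by 4.31 ± 0.89 (adjusted p = 0.0053; 0.028 with the block). A higher effect did not mean a higher level in the mural sort. Mean H2-K1 was 1477 CPM in non-tumor and 3089 CPM in breast CD31 libraries, against 172 and 2606 CPM in the mural sort. Oas1a was at 107 and 180 CPM against 1.45 and 129 CPM, and Cd274 at 59.2 and 35.1 CPM against 1.34 and 15.9 CPM. Gbp4 was at 203 and 137 CPM against 0.558 and 43.1 CPM. Zbp1, not called here, was at 12.3 and 86.5 CPM against 1.72 and 90.6 CPM.

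Proliferation genes went the other way, with 19 of 36 lower in the mural than in the endothelial effect and none higher (11 with the block). The log2 change of Cd276 was 3.22 in the mural and 9.87 in the endothelial sort (difference -6.64 ± 1.1, adjusted p = 8e-04, and 0.012 with the block). In the CD31 libraries it went from 0.0124 ± 0.0277 to 17.1 ± 7.64 CPM. That non-tumor level is close to 0, so the size of the endothelial change and of the difference is uncertain. In breast libraries its mean was higher in the mural sort, at 71.2 CPM. Abcc9 was at -0.83 in the mural and 5.46 in the endothelial sort, from 0.594 ± 0.355 to 26.7 ± 7.91 CPM (-6.3 ± 0.56, adjusted p = 2.1e-06; 9.7e-05 with the block). Rgs5 differed by 2.98 ± 0.42 (adjusted p = 0.00019; 0.0022 with the block), at 17 ± 6.25 and 2.2 ± 0.66 CPM in non-tumor and breast CD31 libraries, levels far below those of the mural sort. The differences of Kcnj8 (-2.39, adjusted p = 0.024) and Cxcl12 (2.88, adjusted p = 0.016) were lost with the block, at adjusted p = 0.076 and 0.14. Of 35 pericyte genes 2 had a higher and 12 a lower mural effect, 2 and 9 with the block.

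The largest differences toward the mural sort were those of Pakap, Grb7, Pllp, Magix and Slco1a5 (13.57, 8.91, 8.38, 8.15 and 7.69), none of them called with the block (adjusted p = 0.48, 0.098, 0.076, 0.16 and 0.18). Pakap shares exons with its neighbours and its counts are uncertain. Toward the endothelial sort they were Bdkrb2, Dlx1, Npr3, Oaf and Melk (-14.1, -12.73, -9.96, -9.84 and -9.81). With the block Npr3, a natriuretic peptide clearance receptor (adjusted p = 0.012), Oaf (0.0023), Melk, a mitotic kinase (0.023), and Dlx1 (0.018) stayed called, and Bdkrb2 did not (0.36). Oaf was at 11.6 to 31.8 CPM in breast and 17.6 to 24.9 CPM in non-tumor mural libraries, with overlap. In the CD31 libraries Oaf was at 15.4 ± 7.56 CPM in breast and 0.0124 ± 0.0277 CPM in non-tumor. That non-tumor level is close to 0, as is that of Melk (0.0102 ± 0.0229 CPM), so the sizes of their differences are uncertain. Dlx1 was close to 0 in both CD31 groups, at 0.054 ± 0.0798 CPM in breast and 0.0234 ± 0.0522 CPM in non-tumor. Its difference thus rests on its mural change of -11.65. Bdkrb2 had counts in 1 mural library only, that of mouse 54135 (3.54 CPM), without which it was not called.

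**Figure D5:**
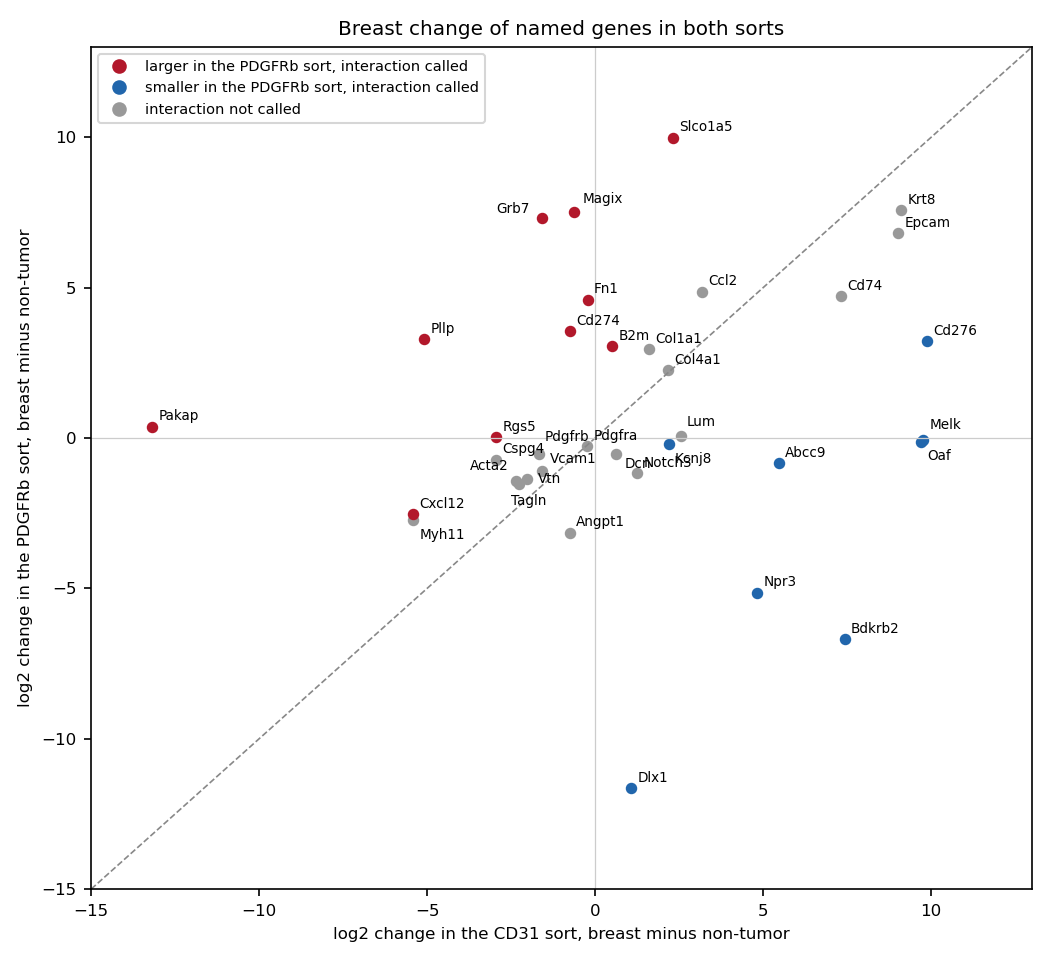
Log2 change (breast minus non-tumor) in the CD31 sort (x axis) and in the PDGFRb sort (y axis) for the sort genes, the set genes and the largest differences, with the dashed line marking equal changes. Fn1, Cd274 and B2m lie above the line, Cd276 and Abcc9 below it, and Krt8 and Epcam are high in both sorts.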

How the data were processed

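Bulk RNA-seq libraries of PDGFRb-sorted cells were compared, 4 from breast BrM and 5 from non-tumor brain. SMART-Seq HT and Nextera XT kits were used, per the labels' protocols. These keep no strand, so a gene and its antisense partner cannot be told apart. Per the submitters' processing notes, the tools were limma version 3.50.3, edgeR version 3.36.0, RSEM version 1.3.3 and STAR version 2.7.9a and the build was mm10, without the part each played. The count table holds the authors' expected counts per gene, which are not scaled. Other deposited tables hold, per their names and values, the authors' log2 values of scaled counts and the authors' FPKM values. They served as alternatives only.

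Expected counts were rounded to whole numbers, and 52093 of 53647 gene IDs had a symbol. After filterByExpr and TMM, edgeR 4.0.16's quasi-likelihood test (robust, R 4.3.3) compared the groups, and calls are Benjamini-Hochberg adjusted p-values under 0.05. Errors of log2 changes are SE. In data simulated from these libraries, with 50 genes per size of change, it recovered 0% at 2-fold, 18% at 4-fold, 56% at 16-fold and 92% at 64-fold, and it called 0.013% of the others. Alternatives were other scalings, filters and tests (limma 3.58.1, DESeq2 1.42.0), the deposited log2 and FPKM values, a minimum change, the date, the lung libraries, single libraries left out, and mouse 54135 placed by cell type label.

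Groups come from titles. Both sorts of a mouse share its number, which pairs them. Over 9 pairs the correlation of deviations from group means was -0.11 to 0.34, over 0.1 in 3 pairs, and 5 libraries correlated best with their partner. No replicates held identical values. Counting intervals cover counting error only.

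Members, gene lists (29) and tests were chosen with earlier results of these data known. Genes were named by rule: the sort genes with Krt8 and Epcam, 22 set genes, up to 4 called members per list by size of change at a mean of 1 log2 CPM or more (or up to 2 by p), the 10 largest rises and 10 largest falls without overlap at a mean of 3 log2 CPM or more, and the 5 largest differences between sorts each way. Predicted genes, mitochondrial genes, immune receptor segments and pseudogenes were not named. A few called list members are not reported here by name. Other list members named in the text were chosen after their values were seen. Where a group had no count, the fold is a bound against 3 counts over that group. Where it had 1 to 3 counts, the ratio carries a 95% counting interval.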

Additional observations from a re-analysis of the deposited data

Results flagged for a closer look

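Within the 2 groups of PDGFRb libraries, 230 gene and group combinations were screened for a single library far from the others, measured by its gap to the nearest library as a share of the group's range, and 27 passed. Chance alone marks about 1 in 20 groups where values have a normal spread. That was not checked for these CPM values, so the 27 cannot be set against that rate. The cause was not tested for any of them.

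The breast library of mouse 51950 stood apart in 9 genes. It was the highest of the breast group in Myh11 (605 CPM), Cxcl2 (135 CPM), Ccnb2 (312 CPM), Esrp2 (316 CPM), Plvap (44 CPM), Irx5 (90 CPM), Dlk1 (307 CPM) and Slc1a6 (128 CPM) and the lowest in Cd44 (7.74 CPM). In the other breast libraries Notch3 was lowest in mouse 53072 (186 CPM) and Ttr highest in mouse 52865 (7.96 CPM).

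The non-tumor library of mouse 54135 was highest in the inhibitory neuron genes Gad2 (87.6 CPM), Dlx1 (249 CPM), Dlx2 (26.4 CPM) and Sp9 (13.5 CPM) and in Miat (84.9 CPM), Fgf13 (29.2 CPM) and Bdkrb2 (3.54 CPM), and lowest in Col4a1 (516 CPM) and Ldha (450 CPM). That of mouse 54132 was highest in the epithelial genes Epcam (6.27 CPM), Plet1 (4.56 CPM), Krt18 (33.2 CPM) and Elf5 (1.23 CPM) and in the microglia gene C1qc (7.72 CPM). That of mouse 56740 was highest in Gbp4 (2.24 CPM) and in Cldn11 (4.86 CPM), a myelin gene.

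By the interaction test the breast effect differed between the mural and the endothelial sort in 18 genes. They are among the sort genes, the set genes and the genes with the largest differences, the last chosen by this same test. Other named genes were also called, among them Ecm2, Slc19a1, Pln, H2-K1 and Flt1, and are not part of the 18. With the mouse as a block Kcnj8, Cxcl12, Pakap, Grb7, Pllp, Magix, Slco1a5 and Bdkrb2 were no longer called. The log2 difference was positive for Rgs5 (2.98), Fn1 (4.82), Cd274 (4.31), Cxcl12 (2.88), B2m (2.55), Pakap (13.57), Grb7 (8.91), Pllp (8.38), Magix (8.15) and Slco1a5 (7.69). It was negative for Kcnj8 (-2.39), Abcc9 (-6.3), Cd276 (-6.64), Dlx1 (-12.73), Bdkrb2 (-14.1), Npr3 (-9.96), Oaf (-9.84) and Melk (-9.81).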

How the results depend on the processing

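The direction of all 933 called genes held in every alternative that gave them a value except the placement of mouse 54135 by its cell type label (882 of 893). The counts did not hold. Against 564 higher and 369 lower genes, the fit with all 3 PDGFRb groups called 1069 higher, DESeq2 1088 higher and 1467 lower (42.6% higher, against 60.5%), limma-voom 805 lower (44.3% higher), and limma on FPKM 736, 561 and 830 lower with a pseudocount of 1, of 0.1, and of 1 at a mean FPKM of at least 1 (41%, 45.9% and 41% higher). The date as a covariate left 33 and 12, and mouse 54135 by label 121 and 31. Leaving out 1 library gave 256 to 1991 higher and 113 to 1727 lower. The median change of all genes moved from -0.21 to -0.82 with limma-voom and -0.59 without a filter.

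For the difference between the sorts, pairing by mouse (replicate block) gave 148 higher and 186 lower against 504 and 826, DESeq2 1611 lower and mouse 54135 by label 6 and 18. Leaving out 1 library gave 388 to 1009 higher and 662 to 1688 lower.

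Signs turned in these genes, of which Tie1 and Flt1 were called. Rgs5 (0.03) was at -0.09 with limma-voom, -0.01 on deposited log2 values, -0.21 on FPKM and -0.24 to 0.25 without 1 library. Kcnj8 (-0.2) was at -0.44 to 0.13 without 1 library and 0.35 with the date and relative to Pdgfrb. Pdgfra (-0.3) was at -1.29 to 0.08 without 1 library and 0.01 with the date. Lum (0.03) was at -3.69 with limma-voom, -3.13 on log2 values, -1.65 and -2.49 on FPKM plus 1 and 0.1, -1.35 relative to Pdgfrb, and -1.32 to 0.47 without 1 library. Pakap was at -0.55 with limma-voom and -0.92 to 0.79 without 1 library, Oaf at -0.44 to 0.14, and Melk at 0.01 with 3 groups and -0.53 to 0.62 without 1 library. With mouse 54135 by label Tie1 was at -1.94, Flt1 -1.82, Pakap -0.16, Pllp -3.09, Oaf 0.21 and Melk 0.84, and the differences between sorts of Kcnj8, Abcc9, Cd276 and Magix at 6.61, 1.15, 1 and -1.92. The cause was not tested. Depth limits the breast library of mouse 51950 most, where 3 counts are 0.484 CPM.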
